A study of Mus musculus with 12 samples.

Results

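Cytoplasmic ribosomal proteins are the protein components of the 2 ribosomal subunits that translate messenger RNA outside mitochondria. The genes described here are those whose symbol in the count files is Rpl or Rps followed by a number (with a final a or x allowed), Rplp0 to Rplp2, or Rpsa, and whose mean over all 12 libraries was at least 1 CPM, a count relative to the library total after TMM correction. The name rule found 76 symbols among 24015 gene rows, and 74 met the minimum: 42 genes of the large subunit, 29 of the small subunit and 3 of the stalk. All 74 were among the 14356 genes that passed the filter on low counts and were tested. Just inside the minimum were Rpl30 at 1.01 CPM, Rps27 at 1.08 and Rpl24 at 1.09, and just outside were Rps29 at 0.346 CPM and Rpl26, which had no count in any library. Rps3a1, at 2.12 CPM, is a ribosomal protein gene that the name rule does not take.

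The libraries come from embryoid bodies, floating clusters in which mouse embryonic stem cells leave the pluripotent state. The stem cell lines came from outbred embryos homozygous for a floxed Trim33 allele and carried UbcCreERT2, a tamoxifen-dependent Cre driven by the ubiquitin C promoter, so every group shares these alleles. Lines were kept in LIF and 2i without feeders, Trim33 loss was started with 4OH-Tamoxifen on day 1 of differentiation, and there were 3 libraries each of control and Trim33-deficient bodies on day 2 and on day 2.5. The control libraries are labelled wildtype, and whether controls received tamoxifen is not given in the sources used here. How many lines the libraries came from is likewise not given. The labels speak of 3 independent pairs without saying whether replicate numbers mark them, and the main fit is unpaired. The p-values measure the spread between libraries, which may in part be technical. Trim33, a ubiquitin ligase of the TRIM family that binds SMAD proteins, stood at 271 ± 8.55 CPM in day 2 controls and 66.0 ± 4.88 in deficient bodies (SD, n = 3), and at 250 ± 12.8 and 58.3 ± 4.23 on day 2.5.

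Ribosomal proteins are needed in near-equal numbers and assembled with ribosomal RNA in the nucleolus. Their mRNAs start with a run of pyrimidines, the TOP motif, through which the kinase mTORC1 and the protein LARP1 control their translation. Short, abundant and made in the germ line, these mRNAs have also been copied back into the genome many times, leaving processed pseudogenes that lack introns and resemble the coding sequence closely. A sequencing read from such a stretch can match several places, which bears on every level below.

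The first coding bases of 3 genes show how far the copies go. The sequences are bases 1 to 60 of the coding sequence in GENCODE M21 transcripts (GRCm38), read 5′ to 3′, and capitals in a copy mark the bases that differ from the gene. They were chosen as the gene that fell in every pairwise comparison, an X-linked gene and the member with the lowest mean level.

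Rps7: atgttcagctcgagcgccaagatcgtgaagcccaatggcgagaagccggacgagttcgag
Gm6472, a copy of Rps7: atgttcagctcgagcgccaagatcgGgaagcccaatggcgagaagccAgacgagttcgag
Rpl10: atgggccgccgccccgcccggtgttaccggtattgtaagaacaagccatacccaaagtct
Rpl10-ps1, a copy of Rpl10: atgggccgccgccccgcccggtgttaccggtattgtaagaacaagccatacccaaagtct
Rpl30: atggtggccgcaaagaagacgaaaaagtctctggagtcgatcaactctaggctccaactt
Gm12191, a copy of Rpl30: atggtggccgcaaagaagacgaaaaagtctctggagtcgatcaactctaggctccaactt

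Over this stretch Rps7 and its copy differ at 2 of 60 bases, and Rpl10 and Rpl30 match theirs at all 60. To put a number on each gene, its coding sequence was cut into all words of 50 bases, and the share of words found in no transcript of another, non-overlapping annotated gene was taken as its unique share. The 74 genes shared words with a median of 9 copies and a maximum of 123 for Rpl7a. No unique word at all was found for 28 genes. The median unique share was 8.57% for the ribosomal protein genes, against 90.5% for translation elongation and initiation factors and 100% for mitochondrial ribosomal proteins, ribosome biogenesis factors, proteasome subunits and oxidative phosphorylation subunits.

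The counted levels of their genes spanned 1.01 to 2653 CPM, a 2628-fold range. Per kilobase of coding length the range was 946-fold. Per coding kilobase, Rps3 stood at 2194 CPM, Rpl8 at 2193, Rpl4 at 2110 and Rpl41 at 1799, all among the 5 highest. Rps3, Rpl8 and Rpl4 had unique shares of 91.9%, 91.3% and 79.7%, while Rpl41, with a coding sequence of 75 bases, had none. Rpl24 was lowest at 2.32 CPM per coding kilobase, with no unique word and 9 copies.

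Counted levels were higher where the unique share was higher. The median was 11.3 CPM per coding kilobase for the 28 genes with no unique word, 62.9 for 13 genes with up to 10%, 256 for 22 genes with 10 to 50%, and 1046 for 11 genes above 50%. No gene above 50% lay under 519. Spearman's rho between the unique share and CPM per coding kilobase was 0.75 over 74 genes (Pearson's r 0.74 on the log2 level), and rho was 0.73 with words of 36 or of 75 bases. Genes are not independent replicates and all points share the same 12 libraries, so this is a description. The files list 0 reads under the counting program's row for reads with several positions in every library, and how such reads were treated is not given in the sources used here. An annotated copy could also outrank its gene: the pseudogene Rpl14-ps1 was counted at 441 CPM and Rpl14 itself at 170. The other rows named as pseudogenes of ribosomal protein genes were at 0.817 CPM or less. The counted level of a ribosomal protein gene is therefore not read below as the level of its mRNA, and comparisons are made for each gene between libraries.

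**Figure D1:**
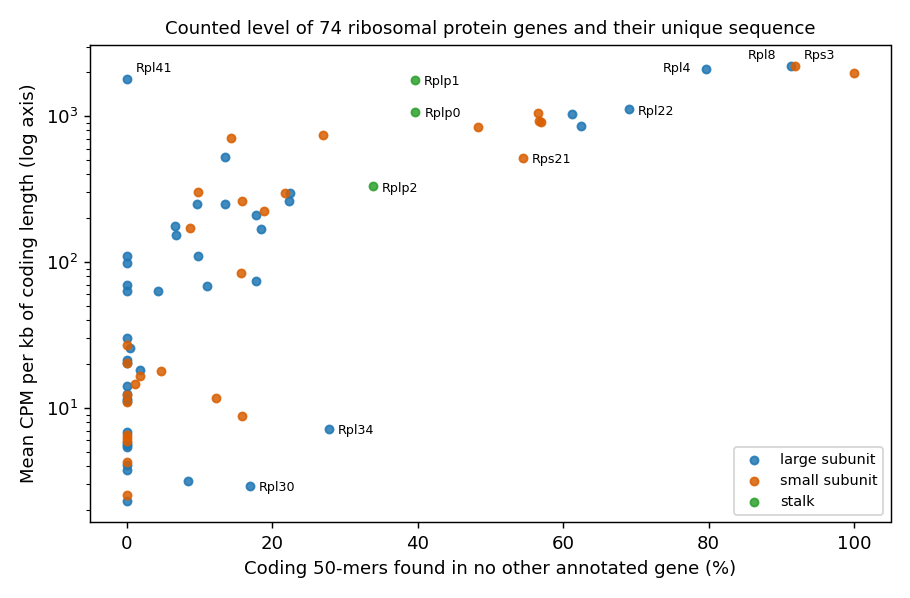
Mean CPM per kilobase of coding length (log axis) against the share of coding 50-base words found in no other annotated gene (%) for the 74 ribosomal protein genes, 1 point a gene, coloured by subunit. Genes with no unique word have a median of 11.3 and genes above 50% a median of 1046; Rpl41 at 1799 is the high point among the former.

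The 74 genes took 1.38 to 1.66% of the counts assigned to genes, which ran from 10066338 to 16529627 per library. The group means were 1.57% ± 0.0860 in day 2 controls, 1.49% ± 0.100 in day 2 deficient bodies, 1.48% ± 0.109 in day 2.5 controls and 1.57% ± 0.0383 in day 2.5 deficient bodies (SD, n = 3), and these differ by no more than about the spread within groups. In day 2 Trim33-deficient replicate 1 the precursor of ribosomal RNA, Rn45s, made up 7.87% of counts, and day 2.5 control replicate 2 held 11.9% of it. At most 1.67% was found elsewhere, and these libraries had the lowest share of ribosomal protein counts, 1.38% each. In day 2 control replicate 2 the median gene of the 74 lay 0.13 above its own mean on the log2 scale, and in the other libraries between -0.09 and 0.03. The 3 libraries stand apart from their groups, and values without them are given where they matter. Markers of pluripotent and epiblast cells were abundant in all libraries, with Dnmt3b at 1635 CPM or more and Pou5f1 at 766 or more in each. Their summed level was 6484 to 6930 CPM in day 2 controls, 5687 to 5781 in deficient bodies, 5677 to 6316 in day 2.5 controls and 4665 to 5098 in day 2.5 deficient bodies. Primitive streak and mesoderm markers, 7 of 10 tested, summed to 47.0 to 62.2 CPM in day 2.5 controls and to 26.0 to 34.6 in every other group. Neuroectoderm markers (6 of 7 tested) summed to 105 to 140 CPM in day 2 controls and 105 to 115 in deficient bodies, and to 155 to 179 and 143 to 157 on day 2.5. Primitive and visceral endoderm markers (7 of 11 tested) summed to 36.8 to 48.0 CPM in day 2.5 controls and 32.4 to 34.9 in deficient bodies, and to 31.1 to 36.3 on day 2. Fibroblast markers (8 of 11 tested) summed to 119 to 152 CPM and blood markers (2 of 8 tested) to 5.91 to 10.2, with Hbb-b1, Hba-a1 and Hbb-bh1 at 0 throughout. The part of these cell mixtures in the results below was not tested, and in whole bodies fewer cells of a type cannot be told apart from less RNA per cell.

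On day 2, 3 of the 74 ribosomal protein genes fell and 0 rose in Trim33-deficient bodies (edgeR quasi-likelihood test, adjusted p under 0.05 over all genes tested; 7 had an unadjusted p under 0.05, and DESeq2 also called 0 higher). Over all genes tested, 5.94% were called higher and 3.90% lower, so 3 of 74 lower is near the background. An unadjusted p under 0.05 was reached by 3547 of all 14356 genes, a larger share than 7 of 74. Of the 74, 60 had a negative log2 fold change, against 7330 of all 14356, with a median of -0.09 against -0.00 for all genes. Genes with a mean of at least 100 CPM lean the same way as a whole: their median was -0.05 over 2577 genes and -0.05 over the 28 ribosomal protein genes among them. The 26 members under 10 CPM had a median of -0.23, with a median standard error of 0.22. Without the 3 libraries that stand apart the members' median was -0.03.

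Rps7, a small-subunit protein that also binds the p53 regulator MDM2, had 13.5, 15.6 and 15.0 CPM in day 2 controls and 10.6, 10.3 and 10.6 in day 2 deficient bodies. The groups do not overlap, and the log2 fold change was -0.49 ± 0.11 (SE; edgeR adjusted p = 0.0108). It was called in all 25 alternative analyses, with adjusted p up to 0.0470. With 17 copies and a unique share of 4.69%, its counts could hold reads of copies.

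Rplp2, a protein of the stalk that recruits elongation factors to the ribosome, had 123, 140 and 132 CPM in day 2 controls and 113, 114 and 107 in deficient bodies. Every deficient library lay below every control, with a log2 fold change of -0.24 ± 0.05 (SE; edgeR adjusted p = 0.0136). Without control replicate 3 or without deficient replicate 3 the call was lost, with adjusted p up to 0.0598. No scaling factors also ended it, with edgeR adjusted p up to 0.0861. Rplp0 and Rplp1, its partners in the stalk, changed by -0.04 and -0.07 and did not pass.

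Rpl10, an X-linked protein added late to the large subunit near its active centre, had 9.37, 9.20 and 10.3 CPM in day 2 controls and 7.21, 6.69 and 7.56 in deficient bodies. The log2 fold change was -0.43 ± 0.13 (SE; edgeR adjusted p = 0.0461), close to the threshold, and the call was lost in 17 of 25 alternatives, 10 of which leave out 1 library (adjusted p up to 0.165). Rpl10 has no unique word. In all, 12 of the 74 genes had deficient libraries wholly below the controls and 1 wholly above, against 29.4% of all genes in either direction. Rpl35, at a mean of 1.17 CPM, had the lowest log2 fold change (-0.54) and did not pass.

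On day 2.5, when 22.0% of all genes were called higher and 20.7% lower in Trim33-deficient bodies, the ribosomal protein genes moved little: 6 of 74 rose and 2 fell. That is a smaller share than the background in both directions. The members' median log2 fold change was 0.03 against -0.01 for all genes, and their quartiles were -0.05 and 0.10, where those of all genes were -0.21 and 0.27. For the 28 members at or above 100 CPM, changes ran from -0.13 to 0.16 with a median standard error of 0.05. Their median was 0.04, and that of all 2577 genes at this level was -0.07. In 10 of the 74 every deficient library was above the controls and in 6 below, against 53.0% of all genes in either direction.

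Rpl10a, a protein of the L1 stalk where spent transfer RNA leaves, had 14.8, 14.2 and 12.5 CPM in day 2.5 controls and 18.1, 19.5 and 17.7 in deficient bodies. The groups are well apart, with a log2 fold change of 0.42 ± 0.09 (SE; edgeR adjusted p = 0.00179). Rps19, the small-subunit protein most often mutated in Diamond-Blackfan anaemia, had 94.4, 84.3 and 93.8 CPM in controls and 107, 108 and 104 in deficient bodies, a log2 fold change of 0.23 ± 0.06 (SE; edgeR adjusted p = 0.00537). Both were called in all 25 alternatives. On day 2 neither had passed, at 0.08 for Rpl10a and 0.09 for Rps19.

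Rplp2 was higher by 0.16 (edgeR adjusted p = 0.0278), at 103, 96.0 and 105 CPM in controls and 114, 113 and 113 in deficient bodies, the opposite of its direction on day 2. That call was lost without control replicate 2 or any 1 of the deficient libraries, with adjusted p up to 0.0832. Upper-quartile factors, no scaling factors and the fit without both libraries rich in Rn45s also ended it, with edgeR adjusted p up to 0.0975.

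Rps20 and Rpsa sat close to the threshold. Rps20 was higher by 0.15 (edgeR adjusted p = 0.0476) and Rpsa, which also gives rise to a laminin receptor, by 0.30 (edgeR adjusted p = 0.0417). Their calls were lost in 7 and 6 of the 12 analyses that leave out 1 library. Over all 25 alternatives they were kept in 11 and 13, with edgeR adjusted p up to 0.237 and 0.175. Rps7 fell again, from 9.71, 9.86 and 8.44 CPM in controls to 7.20, 7.31 and 7.44, a log2 fold change of -0.35 ± 0.11 (SE; edgeR adjusted p = 0.0210). Rpl15, a large-subunit protein whose annotated gene overlaps Nkiras1, had 78.0 ± 2.60 CPM in controls and 66.4 ± 1.24 in deficient bodies (SD, n = 3), with no overlap (-0.23 ± 0.08, SE; edgeR adjusted p = 0.0298). Leaving out control replicate 1 or 2 or deficient replicate 1 or 2 ended the calls of both genes, and deficient replicate 3 that of Rpl15 as well, with adjusted p up to 0.0707 for Rps7 and 0.0867 for Rpl15. The Rps7 call was lost in 9 of 25 alternatives in all, among them DESeq2, no scaling factors, the compared libraries only and the fit without the libraries rich in Rn45s (adjusted p up to 0.105). With no scaling factors the Rpl15 call was also lost, with edgeR adjusted p up to 0.178. Rpl15 has 23 copies and no unique word.

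**Figure D2:**
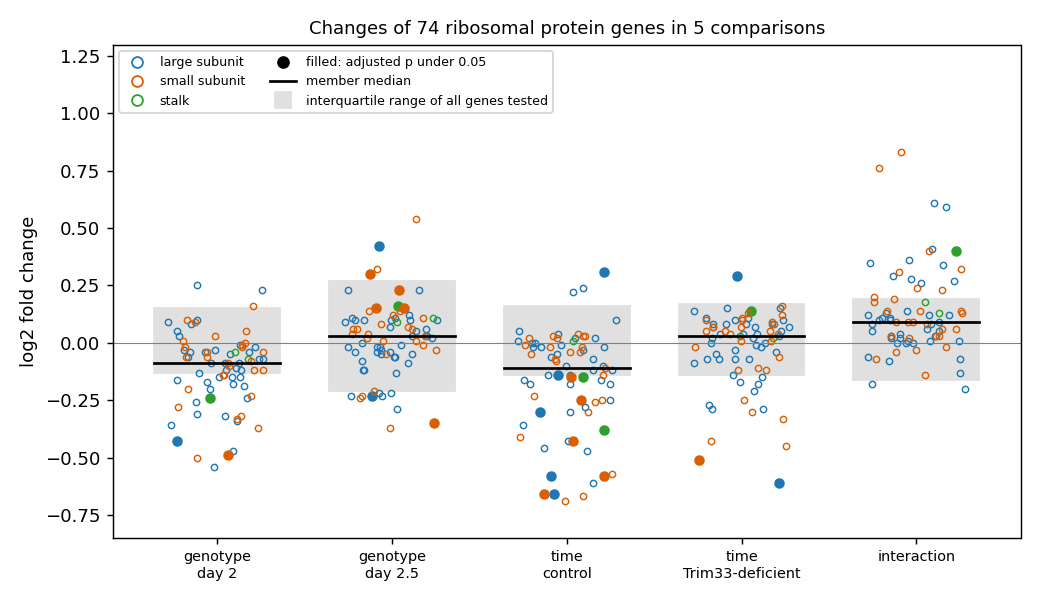
Log2 fold changes of the 74 ribosomal protein genes in 5 comparisons (1 point a gene, coloured by subunit, filled where the adjusted p is under 0.05), with their median (black line) and the interquartile range of all genes tested (grey). On day 2.5 that range runs from -0.21 to 0.27 while most members lie closer to 0; the median is -0.09 on day 2 and 0.03 on day 2.5.

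Among ribosomal proteins with a place in growth control, Rpl5, Rpl11, Rpl23 and Rps6 did not pass in either genotype comparison. Rps4x, Rpl39 and Rpl36a, the X-linked members followed besides Rpl10, did not pass either. Rps7, which also binds MDM2, is described above. Rpl5 and Rpl11, which with 5S RNA bind MDM2 when ribosome assembly fails, changed by 0.10 and -0.24 on day 2 and by 0.02 and -0.23 on day 2.5. Rpl23, another MDM2 partner, stood at 105 ± 7.62, 104 ± 4.25, 105 ± 4.05 and 107 ± 7.55 CPM in the 4 groups in the order above (SD, n = 3), so no difference was visible there. Rps6, the substrate of S6 kinase, changed by -0.10 and -0.23, with no unique word and a mean of 15.1 CPM. The X-linked Rps4x and Rpl39 changed by -0.02 and -0.07 on day 2 and by 0.07 and 0.05 on day 2.5. Rpl36a, also X-linked, was at 1.19 CPM, too low for a change of this size to be seen.

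Between day 2 and day 2.5 in control bodies, 11 of the 74 genes fell and 1 rose (edgeR, adjusted p under 0.05), against 7.91% of all genes called lower and 8.20% higher. As shares, 11 lower (14.9%) is above that background and 1 higher (1.35%) is below it. Among the 2577 genes at or above 100 CPM, 12.5% were called lower, and among the 28 members at that level 5 (17.9%). The members' median was -0.11 against -0.00 for all genes, and 56 of the 74 were negative, against 7248 of all 14356. In 21 every day 2.5 library lay below the day 2 libraries, with 3 wholly above (all genes 31.2% in either direction). The lean was again largest at low levels, with a median of -0.30 for the 26 members under 10 CPM and -0.04 for the 28 at or above 100, where all 2577 genes at that level had -0.03. Without day 2 control replicate 2, 1 of the libraries that stand apart, 6 of the 74 were called lower and 1 higher. Over all genes 1166 were then called lower, and the members' median was -0.07. This comparison shares the day 2 controls with the day 2 genotype comparison and the day 2.5 controls with the day 2.5 one, so their values are not separate evidence.

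Rplp2 had the smallest adjusted p, going from 131 ± 8.53 to 101 ± 4.54 CPM (SD, n = 3; log2 fold change -0.38 ± 0.05, SE; edgeR adjusted p = 0.000391). Rps7 went from 14.7 ± 1.11 to 9.34 ± 0.783 CPM (-0.66, edgeR adjusted p = 0.000799) and Rpl10 from 9.63 ± 0.596 to 6.39 ± 0.848 (-0.58, edgeR adjusted p = 0.00679). Rps21, a small-subunit protein with a unique share of 54.5%, had 144, 149 and 126 CPM on day 2 and 115, 116 and 120 on day 2.5, every later library below every earlier one (-0.25 ± 0.06, SE; edgeR adjusted p = 0.00807). These 4 falls were called in all 24 alternatives.

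Further falls were those of Rpl36 (-0.66), Rps27a (-0.58), which is made as a fusion with ubiquitin, Rps12 (-0.43), Rpl10a (-0.30), Rplp1 (-0.15) and Rpl13a (-0.14), with edgeR adjusted p from 0.0194 for Rpl36 to 0.0488 for Rplp1. Each was lost in 4 to 11 of the 12 analyses without 1 library, and kept in 7 to 19 of all 24 alternatives. Rpl15 was the gene that rose, from 62.9 ± 4.12 to 78.0 ± 2.60 CPM (SD, n = 3; 0.31 ± 0.08, SE; edgeR adjusted p = 0.0170). The Rpl15 call was kept in 22 of 24 alternatives. It was lost with no scaling factors and without day 2 control replicate 3, where the edgeR adjusted p was 0.0924.

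In Trim33-deficient bodies the step from day 2 to day 2.5 brought 2 rises and 2 falls among the 74 genes (edgeR, adjusted p under 0.05), against 9.09% of all genes called higher and 6.93% lower, and the median was 0.03. In 8 genes the later libraries lay wholly above the earlier ones and in 11 wholly below, against 38.7% of all genes in either direction. Rps7 fell from 10.6, 10.3 and 10.6 CPM to 7.20, 7.31 and 7.44 (-0.51 ± 0.11, SE; edgeR adjusted p = 0.00566), called in all 24 alternatives. Rpl31 rose by 0.29 (edgeR adjusted p = 0.0398) and Rplp0, the core of the stalk, by 0.14, from 973 ± 27.3 to 1075 ± 17.4 CPM (SD, n = 3; edgeR adjusted p = 0.0493). Rpl23a had 2.55, 2.63 and 2.34 CPM on day 2 and 1.60, 1.83 and 1.49 on day 2.5 (-0.61, edgeR adjusted p = 0.0477). The calls of Rpl31, Rplp0 and Rpl23a were lost in 6, 8 and 12 of the 12 analyses without 1 library, and kept in 14, 11 and 4 of all 24 alternatives. Rplp2 had stayed at 111 ± 3.85 and 113 ± 0.747 CPM (0.02, edgeR adjusted p = 0.820).

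**Figure D3:**
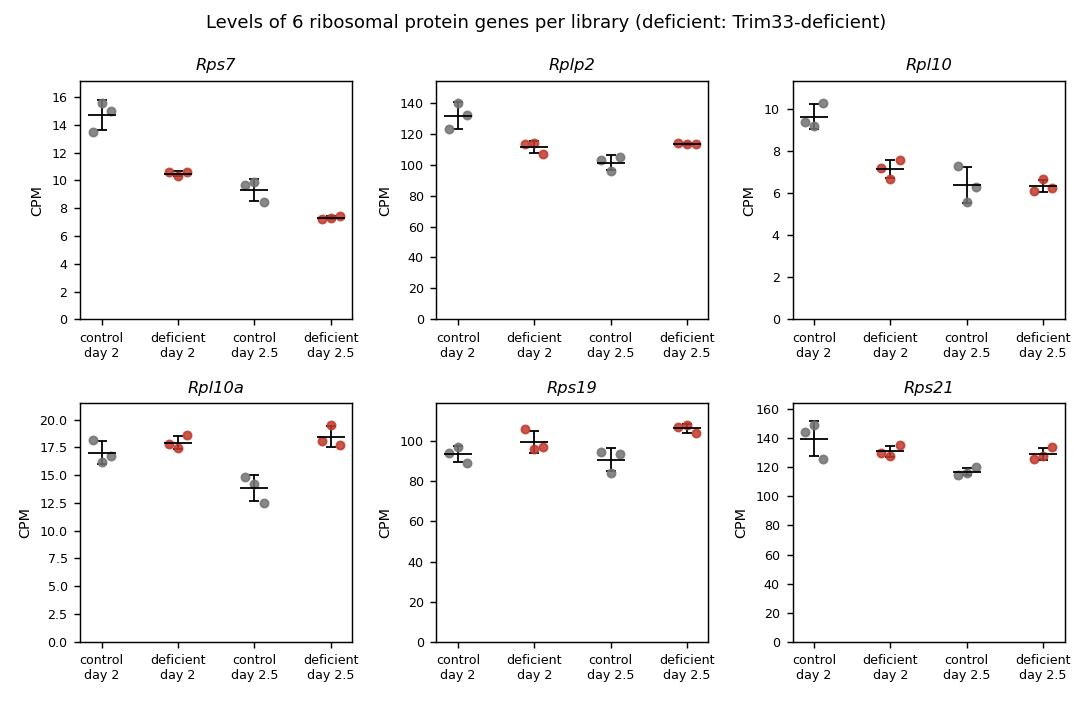
CPM of 6 ribosomal protein genes in each library (points) with group mean and SD (bars, n = 3), controls in grey and Trim33-deficient bodies in red, on axes from 0. Rps7 is lower in deficient bodies and lower on the later day; Rplp2 is below controls on day 2 (113, 114 and 107 against 123, 140 and 132) and above them on day 2.5.

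The difference between the 2 genotype effects was tested as an interaction. Rplp2 was the 1 gene of 74 that passed, at 0.40 ± 0.08 on the log2 scale (SE; edgeR adjusted p = 0.0127), and 0 passed in the other direction, with 11 at an unadjusted p under 0.05. Over all genes 2.77% were called positive and 1.24% negative, so 1 of 74 is near the background. An unadjusted p under 0.05 was reached by 3003 of all 14356 genes, a larger share than 11 of 74. The Rplp2 call was lost without day 2 control replicate 3 or day 2 deficient replicate 3, with adjusted p up to 0.0545. Of the 74 genes 61 had a positive interaction, against 7093 of all 14356, with a median of 0.09 against -0.00 for all genes. At or above 100 CPM 27 of 28 were positive, from -0.00 to 0.40. Among all 2577 genes at that level 1192 were positive, with a median of -0.01. These genes share their libraries, and without day 2 control replicate 2 and the libraries rich in Rn45s the median was 0.05.

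Across the 4 pairwise comparisons and the interaction, 19 of the 74 genes passed at least once and 55 never did. Rps7 passed in all 4 pairwise comparisons and always downward, with the day 2.5 genotype call the least stable of them, and its interaction was 0.14 (edgeR adjusted p = 0.652). Precision went with both the unique share and the counted level, which were not separated. The median SD between libraries of a group, on the log2 scale, was 0.19 for genes with no unique word. It was 0.08 in both classes between, and 0.06 for genes above 50%. By level, the SD of single genes ran from 0.03 to 0.09 at or above 100 CPM and from 0.12 to 0.48 under 10 CPM. The 11 genes above 50% had medians of -0.06 and 0.03 on day 2 and day 2.5, and changes no larger than 0.15 in either direction in these 2 comparisons.

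RefSeq promoter windows (GRCm38.p6, from 250 bases before to 50 after the annotated start) were matched for 55 of the 74 genes. A run of at least 5 C or T bases starting with C within 10 bases of the annotated start was found in 34 of 55 (61.8%), against 34.4% of 27025 genes. The ETS-family motif CCGGAAG, searched on both strands like the rest, was in 22 (40%) against 9.93%, and the Sp1 motif GGGCGG in 34 (61.8%) against 38.2%. The YY1 motif AAGATGGC was in 5 (9.09%) against 3.19%, TATAAA in 6 (10.9%) against 15.7% and the E-box CACGTG in 6 (10.9%) against 8.09%. A match shows only that the letters are there. Of the 19 genes that passed anywhere, 12 had a window and 9 of these the run. Short windows around the annotated start of 5 genes show it, in capitals, 5′ to 3′ on the gene's strand. Rplp2, Rps7, Rps21 and Rpl15 were chosen because they passed in these comparisons and Rps6 as a gene that did not.

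Rplp2, chr7:141447636-141447665, + strand: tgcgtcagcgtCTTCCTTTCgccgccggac
Rps7, chr12:28635939-28635968, - strand: gcttccggtttccacccacctaCTTCCgct
Rps21, chr2:180257364-180257393, + strand: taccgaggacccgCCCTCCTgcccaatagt
Rpl15, chr14:18270972-18271001, - strand: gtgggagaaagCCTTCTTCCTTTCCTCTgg
Rps6, chr4:86857353-86857382, - strand: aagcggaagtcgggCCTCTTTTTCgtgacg

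The run was 17 bases long in Rpl15, 10 in Rps6, 9 in Rplp2, 7 in Rps21 and 5 in Rps7, and genes with and without a change in counts both carry it.

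For other genes of ribosome production and protein turnover, from lists of known components, the background matters, since 3.90% of all genes were called lower on day 2 and 20.7% on day 2.5. Among the 2577 genes at or above 100 CPM these shares were 10.9% and 34.9%, with 6.40% and 19.1% higher. On day 2 an unadjusted p under 0.05 was reached by 3547 of all 14356 genes and by 989 of these 2577. Ribosome biogenesis factors, which process and fold ribosomal RNA, counted 9 of 49 lower and 0 higher on day 2 (18.4% lower; 21 at an unadjusted p under 0.05) and 17 lower and 0 higher on day 2.5 (34.7% lower; edgeR, adjusted p under 0.05). Their medians were -0.12 and -0.11. Npm1, a nucleolar chaperone of ribosome assembly, had 1093, 1082 and 1093 CPM in day 2 controls and 900, 954 and 976 in deficient bodies (-0.21, edgeR adjusted p = 0.0135), and 994, 972 and 1051 in day 2.5 controls and 910, 910 and 865 in deficient bodies (-0.17, edgeR adjusted p = 0.00928). Nhp2, of the complex that guides pseudouridylation of ribosomal RNA, is wholly unique in sequence and changed by -0.27 and -0.31 on the 2 days (edgeR adjusted p = 0.00458 and 0.000145).

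Mitochondrial ribosomal proteins, which serve the separate ribosomes of mitochondria, counted 8 of 75 lower on day 2 (10.7%) and 27 of 75 on day 2.5, close to the shares of genes at or above 100 CPM, with 0 higher on either day and a median of -0.13 on both. Mrpl12, which also binds the mitochondrial RNA polymerase, had 125, 113 and 129 CPM in day 2.5 controls and 87.8, 97.0 and 95.4 in deficient bodies (-0.39, edgeR adjusted p = 7.74e-05). Translation elongation and initiation factors counted 6 of 35 lower and 0 higher on day 2 (17.1% lower), and 15 lower and 2 higher on day 2.5 (42.9% lower). Eif4e, the cap-binding protein, changed by -0.32 on day 2.5 (edgeR adjusted p = 8.09e-05). Proteasome subunits, the machinery of protein breakdown, counted 7 of 38 lower on day 2 (18.4%) and 14 lower (36.8%) with 1 higher on day 2.5. Oxidative phosphorylation subunits counted 2 of 68 lower (2.94%) and 0 higher on day 2, and 13 lower (19.1%) with 5 higher (7.35%) on day 2.5. The lower shares are near those of all genes, while the higher shares are below the 5.94% and 22.0% of all genes. Of 21 other proteins whose mRNAs carry a TOP motif, 5 were lower on day 2 and 6 on day 2.5, with 0 higher. Of 8 host genes of small nucleolar RNAs, which guide the modification of ribosomal RNA, 0 were called on day 2 (2 at an unadjusted p under 0.05) and 3 were higher and 1 lower on day 2.5. None of these lists was tested against the ribosomal protein genes, and errors may differ between lists with unique share and counted level.

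Of 20 regulators of ribosome synthesis in the mTOR and MYC pathways, 6 were higher (30.0%) and 0 lower on day 2.5, and 1 was higher on day 2, where 22.0% and 5.94% of all genes were higher. Sesn2, an inhibitor of mTORC1, changed by 0.50 (edgeR adjusted p = 0.00985), and Mxd4, a MYC antagonist, by 0.69 (edgeR adjusted p = 0.00240). Eif4ebp1, the repressor of Eif4e, changed by 0.16 (edgeR adjusted p = 0.00968). RNA polymerase I and its factors counted 0 of 19 called on day 2 (3 at an unadjusted p under 0.05) and 3 higher and 4 lower on day 2.5, near the background in both directions, among them the initiation factor Rrn3 at 0.22 and the subunit Polr1e at -0.40.

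**Figure D4:**
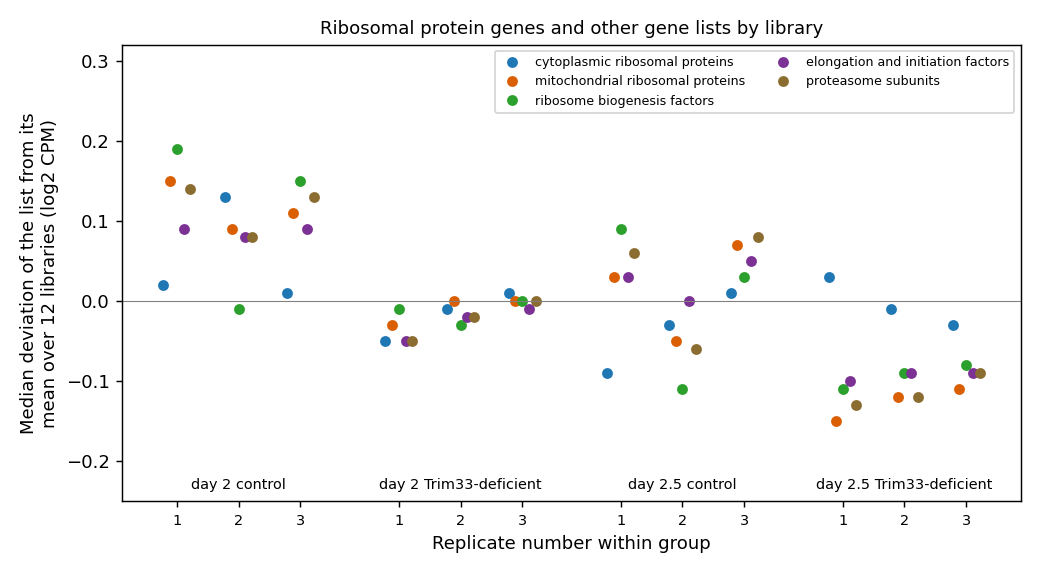
Median deviation of each gene list from its own mean over the 12 libraries (log2 CPM), 1 point a list and library, by group and replicate number. In day 2.5 Trim33-deficient bodies the ribosomal protein genes lie between -0.03 and 0.03 while the other 4 lists lie between -0.15 and -0.08; day 2 control replicate 2 is the library with the highest ribosomal protein value, 0.13.

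Of 11 tested paralogs that the name rule leaves out, 2 were higher (18.2%) and 1 lower (9.09%) in deficient bodies on day 2.5. Over all genes tested these shares were 22.0% and 20.7%, so the paralogs as a list did not exceed the background. Rpl39l, an autosomal paralog of the X-linked Rpl39 and unique over its whole coding sequence, had 29.9, 23.7 and 29.7 CPM in day 2 controls and 16.5, 14.1 and 13.0 in day 2.5 controls. The fall of 0.93 on the log2 scale (edgeR adjusted p = 0.000193) had no counterpart in deficient bodies, where the libraries held 29.9, 27.1 and 26.5 CPM on day 2 and 30.1, 24.5 and 32.4 on day 2.5. The day 2.5 genotype difference was 1.00 ± 0.12 (SE; edgeR adjusted p = 1.50e-05) and the interaction 1.00 ± 0.17 (SE; edgeR adjusted p = 0.00706). Rpl39 itself stood between 76.8 and 82.4 CPM in all 4 groups and passed in no comparison.

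Rpl10l, an intronless paralog of Rpl10 known from the testis, had 49.0, 41.5 and 48.6 CPM in day 2 controls and 23.6, 18.7 and 21.4 in day 2.5 controls, against 53.4, 41.4 and 44.0 and then 37.4, 35.0 and 34.8 in deficient bodies. It fell with time in both genotypes, by 1.12 in controls (edgeR adjusted p = 1.24e-05) and by 0.36 in deficient bodies (edgeR adjusted p = 0.0215), and the interaction was 0.76 ± 0.14 (SE; edgeR adjusted p = 0.0117). With a unique share of 87.5% it was counted 37.4 CPM on average, above the 7.38 CPM of Rpl10. The calls of Rpl39l and Rpl10l on day 2.5, over time in controls and in the interaction held in all alternatives, with adjusted p up to 0.0499 for the interaction of Rpl10l. The fall of Rpl10l in deficient bodies was lost in 3 of the 12 analyses without 1 library, those without day 2 deficient replicate 1 and day 2.5 deficient replicates 2 and 3 (adjusted p up to 0.0837). Rps27l, a paralog of Rps27 and a p53 target, was lower on both days, with changes of -0.18 and -0.20 (edgeR adjusted p = 0.0298 and 0.00341).

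**Figure D5:**
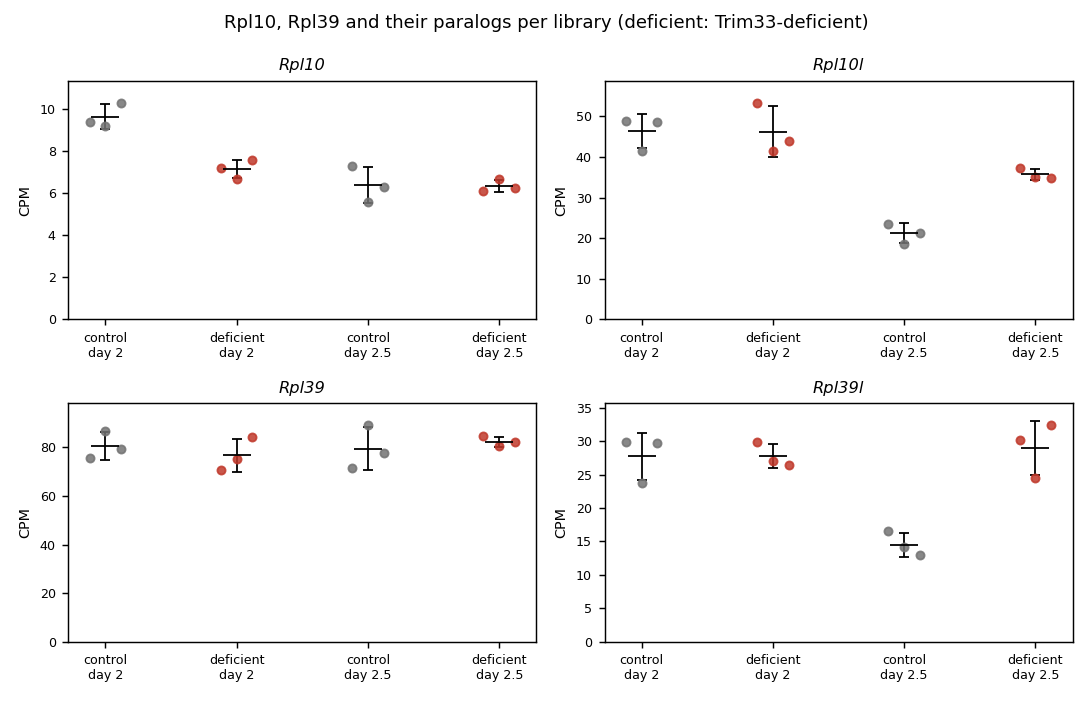
CPM of Rpl10, Rpl39 and their paralogs Rpl10l and Rpl39l in each library (points) with group mean and SD (bars, n = 3), controls in grey and Trim33-deficient bodies in red, on axes from 0. Rpl39l lies at 16.5, 14.1 and 13.0 CPM in day 2.5 controls and above 23 in every other library, while Rpl39 lies near 80 in all groups.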

How the data were processed

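RNA was sequenced from 12 libraries, 4 groups of 3. The authors deposited raw counts of reads per gene symbol, and the submitters' processing notes name STAR, HTSeq, DESeq and build mm9 without versions. The annotation, the strand option and how multiply placed reads were handled are not stated there. Left out were 5 closing rows per deposited count file that are not genes; the no-feature row held 55.9 to 60.5% of each file's reads. In 1 library 27 gene names turned into dates were restored by row position.

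edgeR 4.0.16 in R 4.3.3 was fitted to all 12 libraries (TMM, filterByExpr, robust quasi-likelihood, 4 group means, 8 residual degrees of freedom), with Benjamini-Hochberg adjustment over 14356 genes and a threshold of 0.05. There were 5 comparisons: genotype on each day, day in each genotype, and the interaction. Alternatives were other scalings and filters, DESeq2 1.42.0, replicate blocks and left-out libraries.

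Unique shares came from GENCODE M21 coding sequences (GRCm38), and promoters from RefSeq; no mm9 coordinates are printed. Named genes were, per comparison, up to 6 members a direction with the smallest adjusted p, the extremes, fixed functional groups, and up to 4 genes of each other list. The members and lists were chosen with earlier results of these data known. Replicate pairs differed by more than sampling noise (chi-square per degree of freedom at least 1.91). Results of some members are not reported here.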

Additional observations from a re-analysis of the deposited data

Results flagged for a closer look

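Among the ribosomal protein genes, their paralogs and the other lists of translation, turnover and energy genes, the genotype effect differed between day 2 and day 2.5 for 6 genes by the interaction test (edgeR adjusted p under 0.05). They were 1 of 74 ribosomal protein genes, 2 of 11 paralogs and 1 of 21 other proteins with TOP mRNAs. The rest were 1 of 35 elongation and initiation factors and 1 of 68 oxidative phosphorylation subunits. Among 49 ribosome biogenesis factors, 75 mitochondrial ribosomal proteins and 38 proteasome subunits, 0 passed. Over all genes tested, 2.77% passed with a positive interaction and 1.24% with a negative one. Rplp2, the stalk protein, had an interaction of 0.40 on the log2 scale, with deficient libraries below controls on day 2 and above them on day 2.5. The paralogs Rpl39l (1.00) and Rpl10l (0.76) had no genotype difference on day 2 and were higher in deficient bodies on day 2.5.

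Tpt1, whose mRNA also starts with a TOP motif, had an interaction of 0.72 (edgeR adjusted p = 0.0275). It had 23.1, 19.8 and 19.7 CPM in day 2 controls, and every other library held 10.6 to 13.9, so the day 2 controls stood above the rest. Tpt1 has no unique coding word. Cox5b, a subunit of cytochrome c oxidase, had an interaction of 0.45 (edgeR adjusted p = 0.0401), and Eif1ax, an X-linked initiation factor, one of -0.31 (edgeR adjusted p = 0.0440).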

How the results depend on the processing

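No called ribosomal protein gene, and none of the calls of Rpl10l, Rpl39l and Rps4l, reversed direction in the alternatives; the other genes named were not followed through them. The numbers of ribosomal protein genes called were 3 on day 2, 8 on day 2.5, 12 over time in controls, 4 over time in deficient bodies and 1 in the interaction. With no scaling factors they were 1, 3, 7, 1 and 1, and the medians on day 2.5 and in the interaction were 0.09 and 0.16 against 0.03 and 0.09. The day 2.5 count was 5 with upper-quartile factors, 5 with DESeq2 and 5 with a replicate block within day. Over all 25 alternatives it ran from 2 to 12. The count over time in controls was 6 with the compared libraries only. The count over time in deficient bodies was 2 with no filter on low counts, 2 with DESeq2 and 2 without both libraries rich in ribosomal RNA. Without the 3 libraries that stood apart the day 2 median was -0.03 and the interaction count 2. Leaving out each library in turn gave 1 to 3 genes on day 2 (medians -0.10 to -0.04), 2 to 9 on day 2.5, 6 to 11 over time in controls (medians -0.12 to -0.07), 1 to 4 over time in deficient bodies and 0 to 1 in the interaction. The cause of these shifts was not tested. Same-numbered libraries did not deviate together throughout: correlations between genotypes were 0.07, 0.17 and -0.08 on day 2 and -0.01, -0.03 and -0.01 on day 2.5, and between days 0.36, 0.45 and 0.03 in controls and 0.18, -0.02 and 0.09 in deficient bodies, so the replicate block was kept as an alternative. With that block the numbers of ribosomal protein genes called were 3, 8, 12, 4 and 1, as in the main fit. Over all genes, 732 positive and 437 negative interactions passed with it, against 397 and 178 in the main fit. With counts of 1 to 10 CPM a median standard error of 0.22 limits what could be seen.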
